A study of Arabidopsis thaliana with 12 samples.

Results

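The heat shock factors and heat shock proteins of *Arabidopsis thaliana* were followed in whole seedlings that differ in the activity of RVE8, a Myb-like transcription factor of the circadian clock. The members are 43 gene models taken by locus from a fixed list, of 26245 models in the count table, and all 43 were found. They are 20 heat shock factors (HSFs), 2 other regulators (*MBF1C* and *DREB2A*) and 21 chaperones and co-chaperones, of which 13 are small heat shock proteins (small HSPs). Strand-specific RNA-seq libraries were made from 4 groups of pooled 7-day-old seedlings, with 3 libraries each: *rve8-1 RVE8::RVE8:GR* with DEX (*RVE8:GR* + DEX), the same line with mock solution (*RVE8:GR* + mock), *rve8-1* with DEX (*rve8* + DEX) and *rve8-1* with mock solution (*rve8* + mock). All 4 groups carry the *rve8-1* mutation, and the *RVE8:GR* line adds a fusion of RVE8 to the glucocorticoid receptor (GR) under the native *RVE8* promoter, in a line with 1 insertion. GR fusions stay in the cytoplasm until dexamethasone (DEX), a synthetic steroid, lets them enter the nucleus, so RVE8 is expected to be active only in *RVE8:GR* + DEX, and *rve8* + DEX holds the effects of DEX without the fusion. Seedlings were moved to liquid medium with DEX or solvent 4 h after lights on and harvested 4 h later. DEX is given as 30 mM in the sample labels and in micromolar in the methods. The methods describe the 3 samples of a condition as biological replicates, each of about 30 plants. Nothing states that the libraries of a group came from separate experiments, so p-values measure the spread between these libraries.

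HSFs bind heat shock elements, inverted repeats of the unit GAA, in the promoters of chaperone genes. In *Arabidopsis* the class A1 factors are the first activators on heat, *HSFA2* and *HSFA3* prolong and extend the response, and class B factors mostly repress. Their targets include HSP101, a disaggregase, HSP90.1 and HSP70, which fold client proteins, and small HSPs, which hold unfolding proteins in solution. MBF1C is a heat-induced coactivator, and DREB2A is a drought and heat factor that switches on *HSFA3*. These genes are best known from heat-stressed plants. Here no heat was applied.

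The sites at which HSFs could bind were looked up in the TAIR10.1 genome, in which all 43 members have an annotated model. The window of 250 bases before to 50 after the transcript start was searched on both strands. The pair TTCNNGAA was present in 15 of 43 members (34.9%) and in 9.19% of all 25089 windows of that length, and the pair GAANNTTC in 13 (30.2%) and 11.5%. The 3-unit element, in which the pairs overlap by 1 unit in either order and are also counted, was present in 7 members (16.3%) and in 0.506% of all windows. In the 500 bases before the start codon, a window chosen after seeing the data, the 3-unit element was present in 11 members (25.6%) and in 1.28% of 23790 windows. The evening element bound by RVE8, AAATATCT, was present on either strand in 7 members (16.3%) and in 5.67% of all windows of the first kind. By class these were 5 of 20 HSFs (25%), 1 of 2 other regulators and 1 of 21 chaperones (4.76%). In the second window it was present in 7 members (16.3%) and in 8.24% of all windows. These are matches of letters, and no binding was measured here.

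The stretches below belong to 10 members called in at least 1 comparison, because they show which form of the element each carries. A pair was present in at least 1 of both windows in 10 of these 10, in 24 of the other 33 members (72.7%) and in 36.9% of 23790 models with both windows, and the 3-unit element in 4 (40%), 8 (24.2%) and 1.35%. These shares include the second window, which was chosen after seeing the data. *MBF1C*, *HSP90.1* and *HSFB2A* had a pair in that window only, and so had the 3-unit elements of *HSP90.1* and *HSFB2A* their place. The shares of called and other members therefore depend on that choice. The sequences were read from the RefSeq copy of TAIR10.1 in the direction of the gene, and the capitals mark the element.
HSFA2 (chr2:11135524-11135623, forward strand): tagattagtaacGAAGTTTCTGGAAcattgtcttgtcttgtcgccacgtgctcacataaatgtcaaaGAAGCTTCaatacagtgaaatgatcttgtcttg
HSFB2A (chr5:24916058-24916086, forward strand): ctccatagGAAGTTTCTTGAAgcctaaaa
HSP90.1 (chr5:21352254-21352282, forward strand): aacgaaaaGAACTTTCTGGAAttcgtttg
HSP70 (chr3:3993846-3993874, reverse strand): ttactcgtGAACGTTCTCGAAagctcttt
HSP101 (chr1:27940322-27940351, reverse strand): ataaaataagcGAAAATTCcacgtgacatc
AT1G59860 (chr1:22031339-22031368, forward strand): atttgcctcatTTCTAGAAgctctggagat
FES1A (chr3:2870896-2870925, forward strand): aaaaaggtaaaTTCAAGAAaggcttatcga
HSFB1 (chr4:17440165-17440194, forward strand): tttctgagaatTTCTAGAAacagcatccgt
MBF1C (chr3:8918357-8918386, forward strand): gaataattcggTTCTGGAAgtaagggatcc
HSFA8 (chr1:25486513-25486612, reverse strand): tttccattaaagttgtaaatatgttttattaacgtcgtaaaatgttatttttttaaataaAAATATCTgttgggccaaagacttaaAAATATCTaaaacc
In *HSFA2* the run is the 100 bases before the transcript, with a 3-unit element that ends 76 bases before it and a pair nearer to it. The 3-unit elements of *HSP70* and *HSFB2A* start at bases 21 and 260 of the transcript, in the 5′ UTR, and that of *HSP90.1* ends 283 bases upstream. *HSP101* and *FES1A* have a pair upstream, *AT1G59860* and *MBF1C* a pair in the 5′ UTR, and the pair of *HSFB1* spans the transcript start. The *HSFA8* run, also the 100 bases before the transcript, shows its 2 evening elements. Its pair, GAANNTTC, lies in the 5′ UTR from base 26. The models themselves run on chromosome 2 from 11135624 to 11137792 in 2 exons (*HSFA2*), on chromosome 1 from 27936508 to 27940309 in 6 exons (*HSP101*), on chromosome 5 from 21352557 to 21355147 in 4 exons (*HSP90.1*) and on chromosome 3 from 3991117 to 3993886 in 2 exons (*HSP70*).

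The libraries held 15975840 to 21713130 counts, and a count of 3 equals 0.139 to 0.182 CPM (counts relative to the TMM-scaled library size). A model was tested where it reached 1 CPM in 3 libraries, which held for 19961 models. *RVE8* checked the labels of line: it had 5.2, 5.52 and 6.31 CPM across the *RVE8:GR* + DEX libraries, 9.76, 8.76 and 8.35 across those of *RVE8:GR* + mock, 1.04, 1.33 and 0.601 across *rve8* + DEX and 2.06, 0.606 and 0.712 across *rve8* + mock. The labels of treatment were not checked in this way. Markers of shoot and root were present throughout. The seed regulator *HSFA9* was at 0 in 11 of 12 libraries, while 3 summed seed markers ran from 34.4 to 330.5 CPM.

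Among the members, 36 were tested: 16 HSFs, both other regulators and 18 chaperones. Per kilobase of cDNA, *HSP70* was the most abundant member with 81.8 ± 30.7 CPM per kb (SD over 12 libraries), followed by the mitochondrial small HSP *AT5G51440* (56.9 ± 22.04) and *HSP90.1* (37.6 ± 14.4). The SDs of these 3 overlap between neighbours in that order. The HSFs were lower. *HSFB1*, a repressor of class B, led them with 19.2 ± 4.04 CPM per kb, followed by *HSFA1D* (10.02 ± 0.617) and *HSFA7A* (9.74 ± 1.53), which did not differ from each other beyond their spread. *MBF1C* and *DREB2A* stood at 15.2 ± 5.03 and 14.9 ± 4.12 CPM per kb. The 7 members not tested, *HSFA6A*, *HSFA6B*, *HSFA7B*, *HSFB3*, *HSP21*, *ATHSP22.0* and *AT1G52560*, did not exceed 1.39 CPM in any library. *HSP21*, of plastids, and *ATHSP22.0*, of the endoplasmic reticulum, are among the small HSPs that heat raises.

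The response to DEX without the fusion held the most calls among these genes. In *rve8* + DEX, relative to *rve8* + mock, 10 of 36 members tested rose at an adjusted p under 0.01 (edgeR's quasi-likelihood test, Benjamini-Hochberg over all models tested) and 0 fell, against 3.96% of all models tested that rose and 1.57% that fell. At an unadjusted p under 0.05, 18 members rose and 0 fell, against 2848 and 2430 of all 19961 models. DESeq2 also called 0 members fallen. The 10 were 4 of 16 HSFs, 1 of 2 other regulators and 5 of 18 chaperones. The median log2 fold change was 0.19 for the HSFs, 0.74 for the chaperones and −0.01 for all models tested. All 3 libraries of *rve8* + DEX lay above all 3 of *rve8* + mock for 17 of 36 members, against 15.7% of all models.

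*HSFA2* moved most among the HSFs. *HSFA2* had 13.2, 10.06 and 12.4 CPM across the *RVE8:GR* + DEX libraries, 6.56, 9.33 and 8.69 across those of *RVE8:GR* + mock, 28.4, 24.4 and 19.98 across *rve8* + DEX and 6.53, 11.3 and 8.48 across *rve8* + mock. The *rve8* + DEX libraries stood above the other 9. This was a log2 fold change of 1.47 ± 0.19 (SE), adjusted p = 0.000216. *HSFB2A*, of class B, also rose. *HSFB2A* had 4.45, 3.9 and 6.25 CPM across the *RVE8:GR* + DEX libraries, 4.64, 5.39 and 4.86 across those of *RVE8:GR* + mock, 6.43, 6.25 and 7.41 across *rve8* + DEX and 3.77, 2.54 and 3.97 across *rve8* + mock. The *rve8* + DEX and *rve8* + mock libraries did not overlap, and the log2 fold change was 0.97 ± 0.19 (SE), adjusted p = 0.00219. *HSFA8*, a class A factor with a pair of evening elements, was of a narrower range. *HSFA8* had 15.1, 15.4 and 15.3 CPM across the *RVE8:GR* + DEX libraries, 12.7, 12.7 and 13.6 across those of *RVE8:GR* + mock, 16, 13.9 and 16.1 across *rve8* + DEX and 11.6, 9.21 and 10.4 across *rve8* + mock. It rose by 0.56 ± 0.11 (SE), adjusted p = 0.00136. In *RVE8:GR* + DEX it was not called, with −0.009 (adjusted p = 0.978) relative to *rve8* + DEX and 0.23 (adjusted p = 0.22) relative to *RVE8:GR* + mock. *HSFB1* had 38.3, 33.7 and 42.4 CPM across the *RVE8:GR* + DEX libraries, 26.3, 26.9 and 29.1 across those of *RVE8:GR* + mock, 39.7, 37.5 and 49 across *rve8* + DEX and 30.8, 26.8 and 29.8 across *rve8* + mock. *HSFB1* rose by 0.53 ± 0.10 (SE), adjusted p = 0.00135, and DEX libraries lay above mock libraries in both lines. Without *rve8* + mock replicate 2, the adjusted p of *HSFA8*, *HSFB1* and *HSFB2A* became 0.0152, 0.0166 and 0.0235. *HSFB1* and *HSFB2A* also missed the threshold without *rve8* + DEX replicate 3.

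The heat coactivator gene *MBF1C* rose with them. *MBF1C* had 15.9, 13 and 15.3 CPM across the *RVE8:GR* + DEX libraries, 13.3, 12.3 and 14.9 across those of *RVE8:GR* + mock, 28.1, 20.1 and 25.8 across *rve8* + DEX and 12.5, 17.2 and 10.4 across *rve8* + mock. The *rve8* + DEX libraries were above the rest, with a log2 fold change of 0.89 ± 0.16 (SE), adjusted p = 0.00219. The call was lost without *rve8* + DEX replicate 1 or 3 or *rve8* + mock replicate 1, with an adjusted p of up to 0.0208. *DREB2A* did not pass. *DREB2A* had 31.2, 23.7 and 24.3 CPM across the *RVE8:GR* + DEX libraries, 17.2, 26.2 and 23.4 across those of *RVE8:GR* + mock, 40.6, 25.4 and 28.7 across *rve8* + DEX and 15.8, 18.5 and 20.5 across *rve8* + mock. The log2 fold change was 0.79 ± 0.21 (SE), adjusted p = 0.0376. Among the HSFs not called, *HSFA3*, its target, had 0.61 (adjusted p = 0.0258) and *HSFB2B* had 0.45 (adjusted p = 0.0276). The class A1 activators *HSFA1A*, *HSFA1B*, *HSFA1D* and *HSFA1E* had log2 fold changes of −0.01, 0.07, −0.09 and −0.28, none of which passed. *HSFA1D* had 18.4, 20.5 and 18.5 CPM across the *RVE8:GR* + DEX libraries, 22.1, 18.6 and 19.9 across those of *RVE8:GR* + mock, 19.2, 19.7 and 20.2 across *rve8* + DEX and 19.9, 21.2 and 21.6 across *rve8* + mock, with all groups overlapping. *HSFA7A* had 12.4, 11.3 and 13.4 CPM across the *RVE8:GR* + DEX libraries, 7.84, 8.86 and 10.8 across those of *RVE8:GR* + mock, 12.7, 12.6 and 13.6 across *rve8* + DEX and 11.2, 10.7 and 10.0 across *rve8* + mock.

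The chaperones that rose in *rve8* with DEX did so by 0.70 to 1.24 on the log2 scale. *HSP101* had 33, 28.5 and 30.6 CPM across the *RVE8:GR* + DEX libraries, 31.5, 38.9 and 33 across those of *RVE8:GR* + mock, 86.1, 53.7 and 61.1 across *rve8* + DEX and 27.5, 31.3 and 28.8 across *rve8* + mock. The increase of the disaggregase was 1.20 ± 0.16 (SE), adjusted p = 0.0006. *HSP90.1* had 68.6, 67.3 and 66.3 CPM across the *RVE8:GR* + DEX libraries, 50.6, 69.7 and 61.7 across those of *RVE8:GR* + mock, 139, 117 and 126 across *rve8* + DEX and 57.9, 71.1 and 53.8 across *rve8* + mock. For this inducible cytosolic HSP90 the change was 1.07 ± 0.11 (SE), adjusted p = 6.99e-05. *HSP70* had 178, 150.1 and 162 CPM across the *RVE8:GR* + DEX libraries, 148, 194 and 183 across those of *RVE8:GR* + mock, 382, 306 and 294 across *rve8* + DEX and 143, 174 and 158 across *rve8* + mock. The change of this inducible cytosolic HSP70 was 1.05 ± 0.12 (SE), adjusted p = 0.000204. In each of the 3 genes, the *rve8* + DEX libraries were above the other 9. *AT1G59860*, a cytosolic small HSP, was lower in level. *AT1G59860* had 3.98, 3.15 and 3.04 CPM across the *RVE8:GR* + DEX libraries, 2.91, 4.87 and 4.29 across those of *RVE8:GR* + mock, 9.46, 8.27 and 7.46 across *rve8* + DEX and 2.82, 4.85 and 2.96 across *rve8* + mock. Its change was 1.24 ± 0.21 (SE), adjusted p = 0.000489. *FES1A*, whose product protects HSP70 as a co-chaperone, had the least scatter within groups of the chaperones tested. *FES1A* had 42.5, 39.4 and 42.5 CPM across the *RVE8:GR* + DEX libraries, 30.8, 39.8 and 38.8 across those of *RVE8:GR* + mock, 72, 61.7 and 59.9 across *rve8* + DEX and 39.5, 40.6 and 39.1 across *rve8* + mock. It rose by 0.70 ± 0.09 (SE), adjusted p = 3.3e-05. The calls of these 5 chaperones held under all 19 alternatives of normalization, filter, test, block or library left out.

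**Figure D1:**
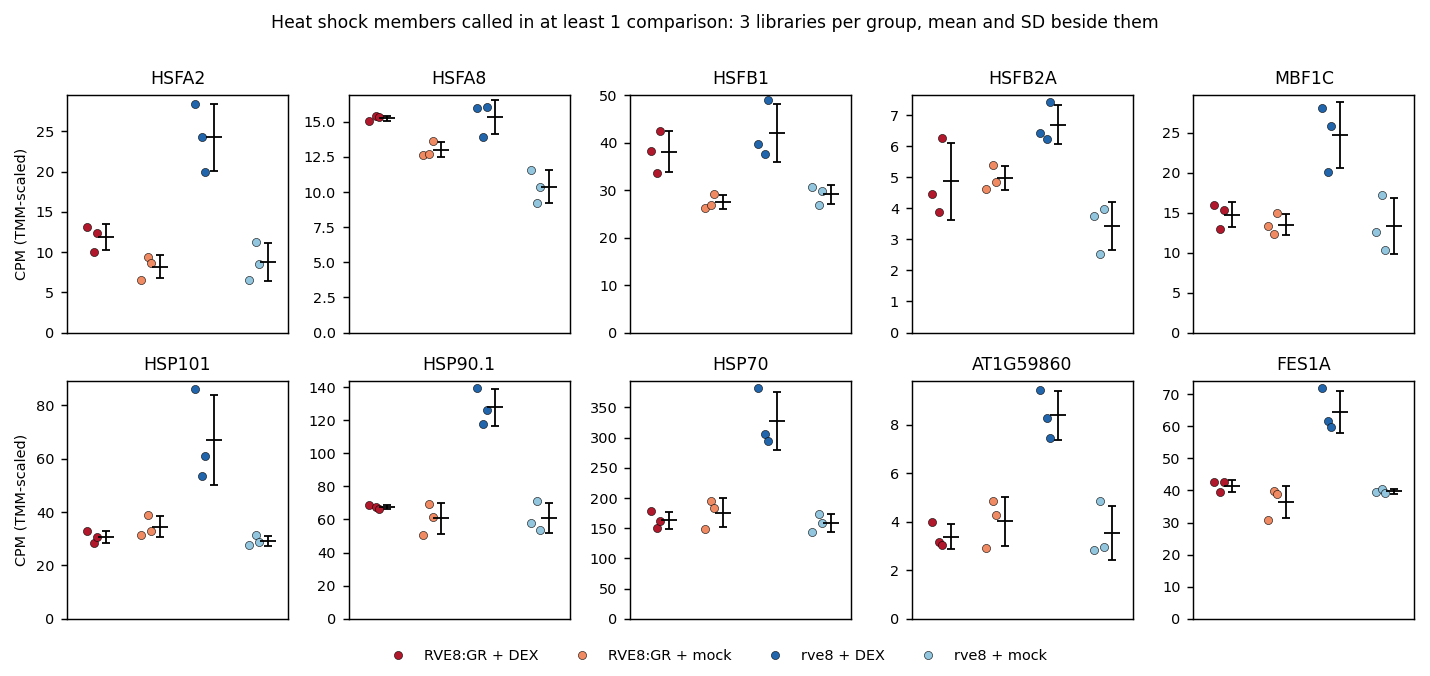
TMM-scaled CPM of the 10 called members in each of the 12 libraries, by group, as 1 point per library with the group mean and SD (n = 3) beside it. The *rve8* + DEX libraries stand above all others for HSFA2, MBF1C, HSP101, HSP90.1, HSP70, AT1G59860 and FES1A, while HSFB1 is higher with DEX than with mock solution in both lines.

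With DEX in both lines, the same genes were compared by line. *RVE8:GR* + DEX, relative to *rve8* + DEX, held 7 of 36 members tested that fell and 0 that rose, against 2.32% of all models tested that fell and 1.89% that rose. The *rve8* + DEX libraries are shared with the comparison above. At an unadjusted p under 0.05, 19 fell and 0 rose, against 1964 and 1801 of all 19961 models. DESeq2 and edgeR's exact test also called 0 members risen. All 3 *RVE8:GR* + DEX libraries lay below all 3 *rve8* + DEX libraries for 18 of 36 members, against 12.8% of all models. By class, 1 of 16 HSFs, 1 of 2 other regulators and 5 of 18 chaperones fell, with medians of −0.11 for the HSFs, −1.01 for the chaperones and 0.01 for all models.

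*HSFA2* fell, with a log2 fold change of −1.03 ± 0.18 (SE), adjusted p = 0.00184. It missed the threshold without *RVE8:GR* + DEX replicate 2 or 3, at an adjusted p of at most 0.0116. *MBF1C* had −0.75 ± 0.16 (SE), adjusted p = 0.00702, and lost the call in 9 of 19 alternatives, with an adjusted p of up to 0.0398. The chaperones had −1.13 ± 0.15 (SE), adjusted p = 0.000704 for *HSP101*, −0.92 ± 0.11 (SE), adjusted p = 0.000104 for *HSP90.1*, −1.0 ± 0.12 (SE), adjusted p = 0.000168 for *HSP70*, −1.30 ± 0.21 (SE), adjusted p = 0.000196 for *AT1G59860* and −0.64 ± 0.09 (SE), adjusted p = 3.3e-05 for *FES1A*. These 5 calls held under all 19 alternatives. The largest difference was in *HSP23.6-MITO*, a small HSP of mitochondria, which the quasi-likelihood test did not call. *HSP23.6-MITO* had 2.06, 2.09 and 1.43 CPM across the *RVE8:GR* + DEX libraries, 4.68, 7.88 and 3.55 across those of *RVE8:GR* + mock, 9.02, 5.9 and 4.71 across *rve8* + DEX and 1.94, 5.21 and 4.21 across *rve8* + mock. Its difference was −1.79 ± 0.41 (SE), adjusted p = 0.0205. It was called in 5 of 19 alternatives, with an adjusted p of 1.77e-09 by edgeR's exact test, 0.00122 by DESeq2 and 0.00928 with the replicate number as a block, against 0.0864 without *RVE8:GR* + DEX replicate 3. *AT5G51440*, also of mitochondria, had 54.3, 46.6 and 38.8 CPM across the *RVE8:GR* + DEX libraries, 44.2, 70.1 and 57.4 across those of *RVE8:GR* + mock, 99.3, 119 and 79.7 across *rve8* + DEX and 46.5, 48.9 and 56.8 across *rve8* + mock, with −1.09 ± 0.21 (SE), adjusted p = 0.0129.

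Some markers of the green shoot moved in the same comparisons. Of the 3, *RCA*, Rubisco activase, fell in *RVE8:GR* + DEX relative to *rve8* + DEX (−0.52, adjusted p = 8.14e-06). It rose in *rve8* + DEX relative to *rve8* + mock (0.45, adjusted p = 8.22e-05). *LHCB1.1* missed the threshold in the first comparison (−0.27, adjusted p = 0.0183) and rose in the second (0.30, adjusted p = 0.00691). *RBCS1A* passed in neither, with −0.06 (adjusted p = 0.778) in the first and 0.27 (adjusted p = 0.0353) in the second. The response of *LHCB1.1* (*CAB2*), a light-harvesting protein gene, was also lower in *RVE8:GR* than in *rve8* (−0.57, adjusted p = 0.00192). The summed level of these 3 shoot markers ran from 25695 to 28718 CPM in *RVE8:GR* + DEX, 25646 to 26824 in *RVE8:GR* + mock, 28371 to 32906 in *rve8* + DEX and 23407 to 27507 in *rve8* + mock. Most of it came from *RBCS1A*, with a mean of 18865 CPM over 12 libraries. The summed level of 3 root markers ran from 1771 to 2044 CPM in *RVE8:GR* + DEX, 1800 to 2180 in *RVE8:GR* + mock, 1536 to 1800 in *rve8* + DEX and 2018 to 2112 in *rve8* + mock. Of these markers 0 passed the threshold by edgeR and 2 had an unadjusted p under 0.05 in either comparison. In whole seedlings, a change in the share of a tissue and a change in its RNA cannot be told apart, and the part of the tissue mix in the results was not tested.

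Within the *RVE8:GR* line, DEX moved few members past the threshold. *RVE8:GR* + DEX, relative to *RVE8:GR* + mock, had 1 of 36 risen and 0 fallen, against 2.07% of all models risen and 1.36% fallen. *HSFB1* was the one that rose, by 0.47 ± 0.10 (SE), adjusted p = 0.00445. Its adjusted p was up to 0.038 without *RVE8:GR* + DEX replicate 1 or 3 or *RVE8:GR* + mock replicate 1 or 2, so that 15 of 19 alternatives kept the call. Of the members that missed it, *HSFA7A* had 0.43 (adjusted p = 0.0314) and *HSFA2* had 0.54 (adjusted p = 0.135). At an unadjusted p under 0.05, 5 rose and 7 fell, against 1942 and 1759 of all 19961 models. DESeq2 called 2 as fallen and edgeR's exact test 7, with no share of all models given for either.

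Of 10 small HSPs tested, 9 had negative values here, against 10093 of all 19961 models. Small HSPs were 5 of the 7 members with a lower value at an unadjusted p under 0.05. The other two were the activator *HSFA1A* (−0.30) and *Hsp70b*, a cytosolic HSP70 (−0.46). The small HSP *AT5G37670* had the highest value of all members tested (0.74, adjusted p = 0.306). *HSP17.4* had 2.76, 4.31 and 1.49 CPM across the *RVE8:GR* + DEX libraries, 7.89, 11.4 and 7.15 across those of *RVE8:GR* + mock, 8.96, 4.74 and 7.21 across *rve8* + DEX and 3.47, 7.15 and 4.15 across *rve8* + mock. All 3 *RVE8:GR* + DEX libraries of this cytosolic small HSP were below those of *RVE8:GR* + mock, with −1.60 ± 0.39 (SE), adjusted p = 0.039, and the adjusted p ran from 1.34e-09 to 0.136 over the alternatives. *HSP17.6II*, *HSP17.6A* and *AT1G53540*, also cytosolic, had −1.53, −1.14 and −1.57, and *HSP23.6-MITO* had −1.52, none of them past the threshold by the quasi-likelihood test. *HSP17.6A* and *HSP17.6II* lie on the reverse strand of chromosome 5, at 3883957 to 3884838 and 3882231 to 3883111, each in 1 exon. The median over 10 small HSPs tested was −0.85, over 8 other chaperones −0.10 and over all models 0.00.

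**Figure D2:**
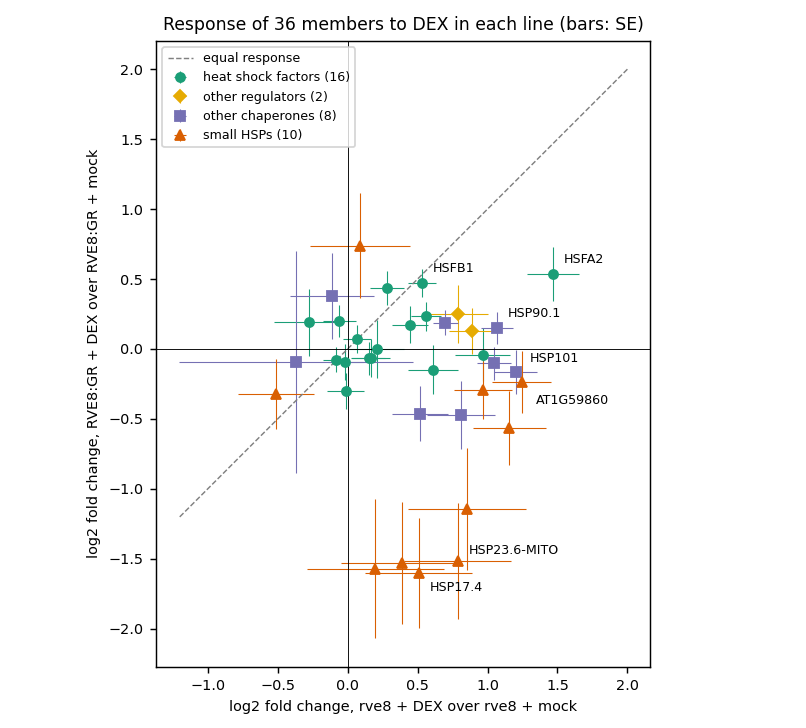
Log2 fold change of 36 tested members with DEX in *RVE8:GR* (vertical axis) against that in *rve8* (horizontal axis), with SE bars, by class, and a dashed line of equal response. The 2 axes share no library. HSFB1 lies near the line, while most chaperones lie below it, and 4 small HSPs lie lowest, HSP17.4, AT1G53540, HSP17.6II and HSP23.6-MITO.

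With mock solution in both lines, *RVE8:GR* + mock differed from *rve8* + mock in 0 of 36 members, against 1.31% of all models higher and 0.416% lower. Unadjusted p under 0.05 was reached by 3 higher and 0 lower, against 2120 and 1908 of all 19961 models. DESeq2 called 0 and edgeR's exact test 2 higher. Of 10 small HSPs tested, 9 had positive values, with a median of 0.51, against 9865 of all 19961 models positive. The *RVE8:GR* + mock libraries are shared with the comparison within the *RVE8:GR* line, in which most small HSPs had negative values. The largest differences by class were 0.53 ± 0.20 (SE), adjusted p = 0.129 in *HSFB2A*, 0.28 ± 0.22 (SE), adjusted p = 0.52 in *DREB2A* and 0.85 ± 0.38 (SE), adjusted p = 0.246 in *HSP17.4*.

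The test of whether DEX acted differently in both lines, the response of *RVE8:GR* minus that of *rve8*, gave 4 of 36 members lower and 0 higher, against 0.947% and 0.24% of all models. All 4 are chaperones, and the shoot marker *LHCB1.1* was called lower in the same test. The differences were −1.37 ± 0.22 (SE), adjusted p = 0.00695 in *HSP101*, −1.15 ± 0.17 (SE), adjusted p = 0.00315 in *HSP70*, −0.92 ± 0.16 (SE), adjusted p = 0.00681 in *HSP90.1* and −1.48 ± 0.31 (SE), adjusted p = 0.00767 in *AT1G59860*. The count was 0 without *RVE8:GR* + DEX replicate 2 or 3 or *rve8* + mock replicate 1 or 3, 1 without *RVE8:GR* + DEX replicate 1 or *RVE8:GR* + mock replicate 3, and 2 without *RVE8:GR* + mock replicate 2 or *rve8* + DEX replicate 3, while DESeq2 called 7. Of the HSFs, *HSFB2A* had the largest difference, −1.01 ± 0.27 (SE), adjusted p = 0.0467, and *HSFA2* had −0.93 ± 0.27 (SE), adjusted p = 0.0935. *MBF1C*, with the largest of the other regulators, had −0.76 ± 0.23 (SE), adjusted p = 0.106, and *HSP23.6-MITO*, with the largest of the chaperones, had −2.31 ± 0.56 (SE), adjusted p = 0.0604. *HSFB1* had −0.06 ± 0.14 (SE), adjusted p = 0.914. The median was −0.21 for 16 HSFs, −1.27 for 18 chaperones and 0.01 for all models.

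The classes also differed in how far libraries of 1 group lay apart. The within-group SD of log2(CPM + 0.5) had a median of 0.15 for the HSFs, 0.40 for 10 small HSPs, 0.24 for 8 other chaperones and 0.13 for all models tested. The highest were *BIP3*, a chaperone of the endoplasmic reticulum near 1 CPM (0.82), *AT1G53540* (0.58) and *HSP17.6II* (0.52), and the lowest *HSFA1B* (0.08). *HSP17.6II* had 8.28, 11 and 4.99 CPM across the *RVE8:GR* + DEX libraries, 20.7, 34.7 and 15.5 across those of *RVE8:GR* + mock, 26, 12.8 and 13.8 across *rve8* + DEX and 10.9, 17.7 and 11.6 across *rve8* + mock.

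The extreme values often fell in the same libraries. *RVE8:GR* + mock replicate 2 was the highest of its group for 10 of 10 small HSPs tested and 17 of 18 chaperones, but for 6 of 16 HSFs. *rve8* + DEX replicate 1 was the highest for 8 of 10 and 16 of 18, and *rve8* + mock replicate 2 for 7 of 10 and 13 of 18. *RVE8:GR* + DEX replicate 3 was the lowest for 9 of 10 small HSPs. The share of all models with their extreme in these libraries was not counted. In *rve8* + DEX relative to *rve8* + mock, 10 members rose without *rve8* + DEX replicate 1 and 7 without *rve8* + mock replicate 2. In *RVE8:GR* + DEX relative to *rve8* + DEX, 5 fell without *RVE8:GR* + DEX replicate 3. There 9 fell without *RVE8:GR* + mock replicate 2, a library in neither group of that comparison. The summed level of 13 small HSPs was 100.8, 99.1 and 74.7 CPM across the *RVE8:GR* + DEX libraries, 123, 191 and 133 across those of *RVE8:GR* + mock, 242, 197 and 162 across *rve8* + DEX and 92.3, 126 and 116 across *rve8* + mock. The 8 other chaperones summed to 385, 365 and 363 CPM across the *RVE8:GR* + DEX libraries, 332, 467 and 399 across those of *RVE8:GR* + mock, 832, 646 and 648 across *rve8* + DEX and 335, 398 and 349 across *rve8* + mock. The 20 HSFs spanned 185 to 205 CPM in *RVE8:GR* + DEX, 175 to 182 in *RVE8:GR* + mock, 213 to 229 in *rve8* + DEX and 172 to 182 in *rve8* + mock.

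**Figure D3:**
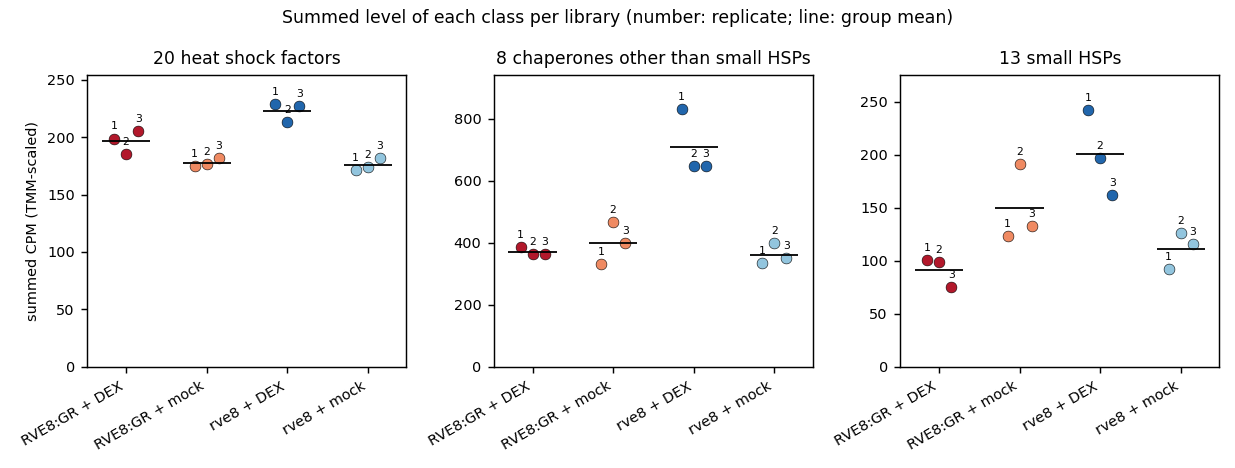
Summed TMM-scaled CPM of the 20 heat shock factors, the 8 chaperones other than small HSPs and the 13 small HSPs in each library, by group, with the replicate number above each point and a line at the group mean. The 3 *rve8* + DEX libraries are the highest for the other chaperones (646 to 832 CPM), while for the small HSPs *RVE8:GR* + mock replicate 2 (191 CPM) lies above *rve8* + DEX replicate 3 (162 CPM).

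The deviations of libraries from their group means were shared among chaperones and less so with HSFs. Over 12 libraries, the median correlation of these deviations was 0.50 over 153 pairs of chaperones, 0.05 over 120 pairs of HSFs and −0.05 over 288 pairs of an HSF and a chaperone. In that order the pairs ran from −0.52 to 0.93, from −0.76 to 0.81 and from −0.98 to 0.91. *HSFA2* had 0.91 with *HSP70*, 0.89 with *AT1G59860*, 0.81 with *AT1G07400*, 0.72 with *FES1A* and a median of 0.54 over 18 chaperones, with a lowest value of −0.20 for *AT5G37670*, a small HSP of peroxisomes. The points share libraries and depth, and the values describe these 12 libraries alone.

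**Figure D4:**
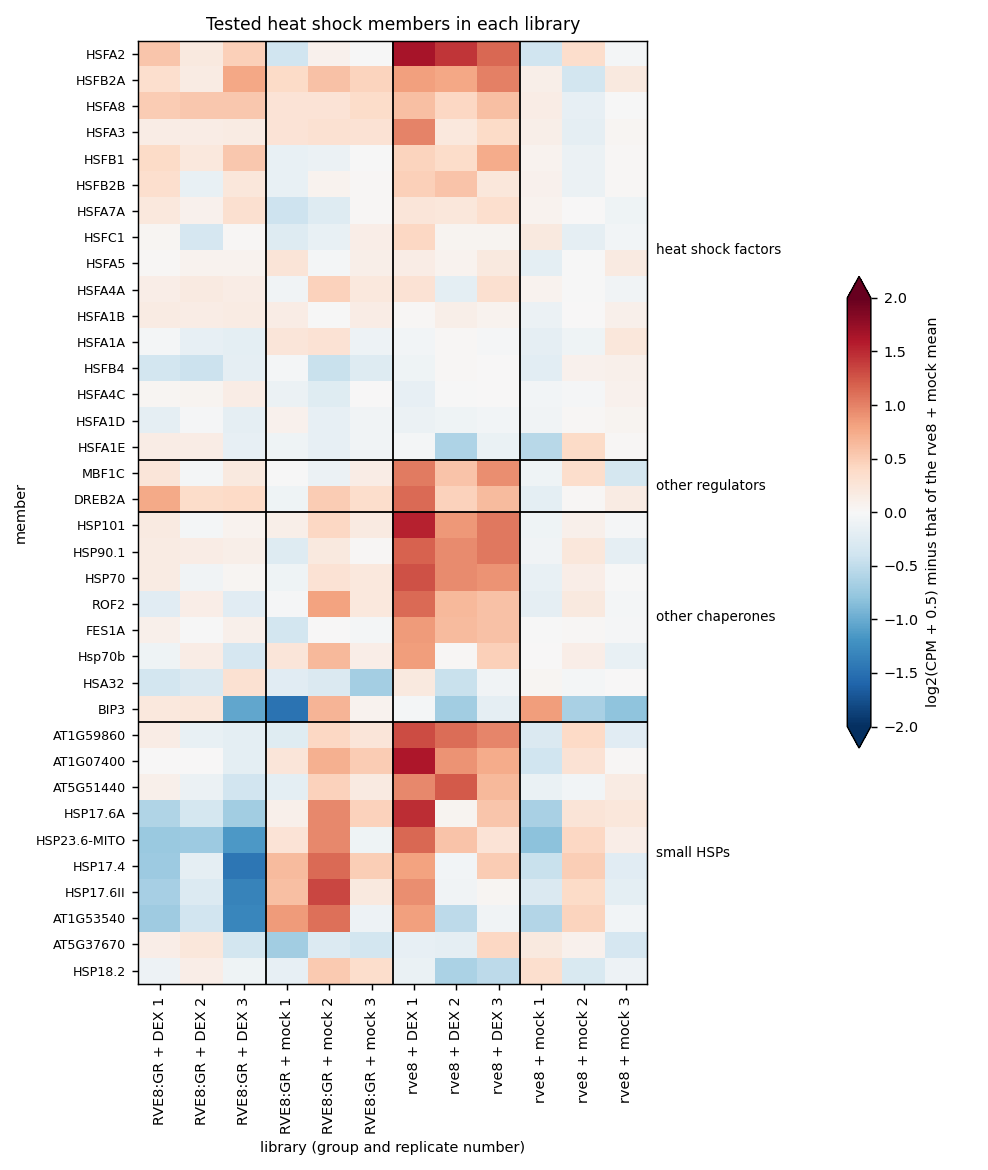
Log2(CPM + 0.5) of 36 tested members in each library minus that of the *rve8* + mock mean, with the members by class down the page and the 12 libraries across in 4 groups. Red is higher and blue lower; the rve8 + DEX columns are the reddest for HSFA2, HSP101, HSP90.1 and HSP70, and the RVE8:GR + DEX columns are blue for HSP17.4, HSP17.6II and AT1G53540.

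Related genes outside the members were counted from 3 lists. Of 19 genes listed as cognate chaperones and their partners, 5 rose and 0 fell in *rve8* + DEX relative to *rve8* + mock, against 3.96% and 1.57% of all models tested. In *RVE8:GR* + DEX relative to *rve8* + DEX, 7 fell and 0 rose, against 2.32% and 1.89%. The list was not sorted by whether heat raises a gene. *HOP3*, a co-chaperone that bridges HSP70 and HSP90, had the largest changes. *HOP3* had 33.1, 33.4 and 30.4 CPM across the *RVE8:GR* + DEX libraries, 35.3, 46.6 and 38 across those of *RVE8:GR* + mock, 74.3, 56.5 and 63.1 across *rve8* + DEX and 35.1, 41.9 and 36.1 across *rve8* + mock, with 0.78 (adjusted p = 0.000248) in *rve8* + DEX relative to *rve8* + mock and −1.0 (adjusted p = 1.24e-05) in *RVE8:GR* + DEX relative to *rve8* + DEX. *CLPB3* had 71.4, 77.2 and 70.7 CPM across the *RVE8:GR* + DEX libraries, 108, 99.2 and 84.4 across those of *RVE8:GR* + mock, 88.8, 90.7 and 86.6 across *rve8* + DEX and 68, 75.8 and 74.9 across *rve8* + mock. This plastid relative of HSP101 had its highest mean in *RVE8:GR* + mock, with an overlap with *rve8* + DEX, and was higher in *RVE8:GR* + mock relative to *rve8* + mock (0.42, adjusted p = 0.00215). It fell in *RVE8:GR* + DEX relative to *RVE8:GR* + mock (−0.41, adjusted p = 0.00126), and its response to DEX differed between lines by −0.69 (adjusted p = 0.000729). *HSC70-2* rose in *rve8* + DEX relative to *rve8* + mock (0.61, adjusted p = 7.67e-05).

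Of 14 genes of folding in the endoplasmic reticulum, 1 fell and 0 rose in *RVE8:GR* + DEX relative to *rve8* + DEX, against 2.32% and 1.89% of all models tested. This was *BIP2* (−0.29, adjusted p = 0.00279). In *rve8* + DEX relative to *rve8* + mock, 0 rose and 0 fell, against 3.96% and 1.57%. *BIP1* differed in its response to DEX between lines (−0.40, adjusted p = 0.00963). *BIP1* and *BIP2* encode HSP70 chaperones of that compartment. Of 10 tested of 12 other targets of HSFs and DREB2A, 3 fell and 1 rose in *RVE8:GR* + DEX relative to *rve8* + DEX, against 2.32% and 1.89% of all models tested. *AT2G20560*, a DnaJ co-chaperone, fell in that comparison (−1.0, adjusted p = 2.09e-05) and rose in *rve8* + DEX relative to *rve8* + mock (0.94, adjusted p = 0.0001). The one that rose was *RD29A*, a target of DREB2A, with 22.1, 26.4 and 22.2 CPM across the *RVE8:GR* + DEX libraries, 31.8, 32.4 and 30.3 across those of *RVE8:GR* + mock, 16.8, 12.9 and 14.5 across *rve8* + DEX and 16.8, 14.4 and 15.8 across *rve8* + mock. It was also higher in *RVE8:GR* + mock relative to *rve8* + mock (1.01, adjusted p = 2.83e-06) and fell in *RVE8:GR* + DEX relative to *RVE8:GR* + mock (−0.42, adjusted p = 0.00973). *AT1G54050*, a small HSP, fell in *RVE8:GR* + DEX relative to *rve8* + DEX (−0.82, adjusted p = 0.000947).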

How the data were processed

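Whole seedlings of both lines were sequenced as 12 libraries, grouped by the sample labels. The deposited table holds raw counts for every model, made by the authors, per the labels and methods, with FASTX-toolkit filtering, BWA alignment to the TAIR10 representative cDNA models, SAMtools and counting of reverse-strand reads. The treatment of reads that matched several models is not stated, but no member shared 10% or more of its 50-base stretches with another cDNA. Empty entries were read as a count of 0.

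Of the models, 19961 reached 1 CPM in 3 or more libraries, and their counts were fitted for 4 groups together in edgeR 4.0.16 (R 4.3.3) by the robust quasi-likelihood test with TMM factors. Calls used a Benjamini-Hochberg adjusted p under 0.01 over all of them. The study's exact test, DESeq2 1.42.0, other normalizations, filters and thresholds, a replicate block and leaving out each library were alternatives. The SE came from the F statistic. The code was tested on simulated data. Positions and sequences are from TAIR10.1 and its annotation, joined by model name. Figures used matplotlib 3.10.9 in Python 3.11.15.

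Values in every library were given for members called in at least 1 of 5 comparisons, for the 3 most abundant per class by CPM per kb, and for the tested member with the largest change per comparison and class; from the other lists, up to 3 called genes were named. *HSP17.6II* was added after its values were seen. The members and lists were chosen with earlier results of these data known. Correlations and sums over lists are descriptions, with no test. With 3 libraries against 3, a permutation could not give an exact p below 0.1.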

Additional observations from a re-analysis of the deposited data

Results flagged for a closer look

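The response to DEX differed between *RVE8:GR* and *rve8* (edgeR's quasi-likelihood test of the interaction, adjusted p under 0.01) for 9 genes of the lists, each with a lower response in *RVE8:GR*. These came from 36 tested members, 19, 14 and 10 tested genes of the other lists, and the markers of shoot, root and seed. Of all 19961 models tested, 189 (0.947%) had a lower response and 48 (0.24%) a higher one, so most calls were lower throughout. Among the members, the difference on the log2 scale was −1.37 for *HSP101*, −0.92 for *HSP90.1*, −1.15 for *HSP70* and −1.48 for *AT1G59860*. Outside the members it was −0.69 for *CLPB3*, −1.09 for *HOP3*, −0.40 for *BIP1* and −0.90 for *AT2G20560*, and for the green shoot marker *LHCB1.1* (*CAB2*) it was −0.57. No explanation was tested.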

How the results depend on the processing

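Without 1 library at a time, the members that rose in *RVE8:GR* + DEX relative to *RVE8:GR* + mock numbered 0 to 2, those that fell in *RVE8:GR* + DEX relative to *rve8* + DEX 5 to 9, those that rose in *rve8* + DEX relative to *rve8* + mock 7 to 11, and those with a lower response to DEX in *RVE8:GR* than in *rve8* 0 to 4. The last count was 1 without TMM factors, 2 without a filter, 7 by DESeq2 and 7 at an adjusted p under 0.05. In *RVE8:GR* + DEX relative to *RVE8:GR* + mock, 2 rose by edgeR's exact test and 2 at an adjusted p under 0.05, while 7 fell by the exact test, 2 by DESeq2 and 1 at an adjusted p under 0.05. The exact test called 15 members lower (DESeq2 11) for *RVE8:GR* + DEX against *rve8* + DEX, 16 higher for *rve8* + DEX against *rve8* + mock and 2 higher for *RVE8:GR* + mock against *rve8* + mock. Shares of all models called under the alternatives are not given, here or above, so these counts have no background to be read against. With the replicate number as a block, 2 members had a lower response in *RVE8:GR*, since *HSP101* and *HSP70* lost the call at an adjusted p of 0.0141 and 0.0142. The other counts were equal to those without the block, but in *RVE8:GR* + DEX relative to *rve8* + DEX *MBF1C* lost its call (0.0166) and *HSP23.6-MITO* gained one (0.00928). Same-numbered libraries of different groups had correlations of deviations of −0.08 to 0.21, over 0.1 in 3 of 18 pairs, all of replicate 3. Libraries with different numbers had −0.22 to 0.17. The numbers were not taken to pair samples in the main fit, and a weaker link by number was not tested apart from the block. Over 32 named changes, 0 reversed, 61 of 633 values under the alternatives lost a call and 13 gained one. The exact test was not run for the difference in response. The cause of these differences was not tested. *BIP3*, *HSA32* and *AT5G37670* had 6 to 59, 16 to 40 and 10 to 33 counts per library.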

Other observations

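*APX2*, a peroxidase gene known as a target of *HSFA2*, was too low to be tested in the whole table. It had 5, 7 and 1 counts across the *RVE8:GR* + DEX libraries, 8, 7 and 4 across those of *RVE8:GR* + mock, 28, 15 and 15 across *rve8* + DEX and 1, 1 and 5 across *rve8* + mock. The *rve8* + DEX libraries were above the other 9. Without a filter, the log2 fold change was 2.86 in *rve8* + DEX relative to *rve8* + mock (adjusted p = 0.00268). It was named after its values were seen.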
